A study of Drosophila melanogaster with 6 samples.

Results

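The 7 genes described here encode the proteins of the Drosophila dosage compensation complex and its closest partners: msl-1, msl-2, msl-3, mle, mof, JIL-1 and Clamp. Their mRNAs were measured on 1-colour Affymetrix arrays (Drosophila Genome 2.0), which report a transcript through a group of short probes called a probeset. Members were all probesets whose only gene symbol in the platform annotation is 1 of these genes, which gave 8 probesets for the 7 genes, of 13647 probesets with 1 symbol for 11983 genes. msl-3 had 2 probesets and each of the other genes had 1. The genes lie on 2L (msl-1, msl-2 and Clamp), 3L (msl-3 and JIL-1), 2R (mle) and X (mof), according to RefSeq's table of genes (assembly Release 6 plus ISO1 MT).

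RNA came from whole female larvae of the last larval stage, 3 preparations per genotype, each from 50 pooled larvae. The roX mutants had the genotype roX1SMC17ADf(1)52; [w+4D4.3], which combines an X-linked mutant allele of roX1 with a deficiency of the X chromosome that removes roX2. The roX1 transgene controls had the same genotype with [hsp83-roX1+] added, so they too lacked the endogenous roX genes and carried the transgene marked w+; the hsp83 promoter is a constitutively active heat shock gene promoter. The submitters use these larvae as their wild-type control. The labels do not say where the transgenes are inserted or whether the stocks differ in other ways. Nothing in the platform annotation is listed under roX1 or roX2 alone, so the targeted genes could not check the labels.

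In male flies the MSL proteins and a roX RNA assemble into a complex that binds the single X chromosome and raises its transcription. MSL1 is the scaffold, MSL2 the male-limited subunit, MSL3 a chromodomain protein, MLE an RNA helicase that remodels roX RNA, and MOF a histone acetyltransferase. JIL-1 is a histone kinase enriched on the male X, and CLAMP is a zinc finger protein that brings the complex to GA-rich sites. In females the sex switch protein SXL blocks translation of msl-2 mRNA and the complex does not assemble. The genes themselves are transcribed in both sexes. The series asks whether roX RNAs matter for gene expression in females, and the values below describe the mRNAs of the proteins with which roX RNAs work in males.

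All values are log2 RMA (robust multi-array average) expression values, on which 1 unit is a doubling, and differences are mutant minus control. Pairs of arrays correlated at 0.9904 to 0.9976 over all probesets where they shared a genotype, and at 0.9904 to 0.9959 where they did not. Larval markers were bright in both groups. The 7 measured fat body and salivary gland genes had medians from 14.04 to 14.08 on the mutant arrays and from 14.05 to 14.2 on the control arrays. Among them Fbp1, a fat body receptor gene, was higher on every mutant array than on any control array. Its log2 change of 0.28 was not called (limma adjusted p = 0.485). Sgs3 went the other way, lower on every mutant array than on any control array, with -0.086 (limma adjusted p = 0.757). The remaining genes of this set had overlapping groups. Of all tested probesets, 9.33% had all mutant arrays below all control arrays, and the share for the upward direction is not given here. The 5 probesets of 3 Y-linked genes lay below the lowest level tested, with medians from 2.717 to 2.939 on the mutant arrays and from 2.683 to 2.781 on the control arrays. Of the 15 probesets of 13 male germline genes, 13 were below that level. The exceptions were Mst98Ca and Mst87F, a sperm protein gene at 7.16 ± 0.17 in mutants and 7.72 ± 0.14 in controls (SD, n = 3 each; limma adjusted p = 0.176). Of the 7 probesets of 5 other germline genes only that of bam was bright enough to test, with a log2 change of 0.24 (limma adjusted p = 0.393). It was higher on every mutant array than on any control array.

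None of the 7 genes was called as changed between mutant and control females. A call here is an adjusted p under 0.05 in the limma fit over 11262 probesets, which 62 of them, or 0.551%, reached, and 0 of the 8 member probesets. All 8 passed the filter on dim probesets, so no member was left out. At an unadjusted p under 0.05 there was 1 member, JIL-1, against 9.0% of all tested probesets. The median change of the 7 genes, each read by its brightest probeset, was -0.0497, against -0.00491 for all 8883 tested genes. These are whole larvae, so fewer cells of a type and less RNA per cell cannot be told apart in any difference below.

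**Figure D1:**
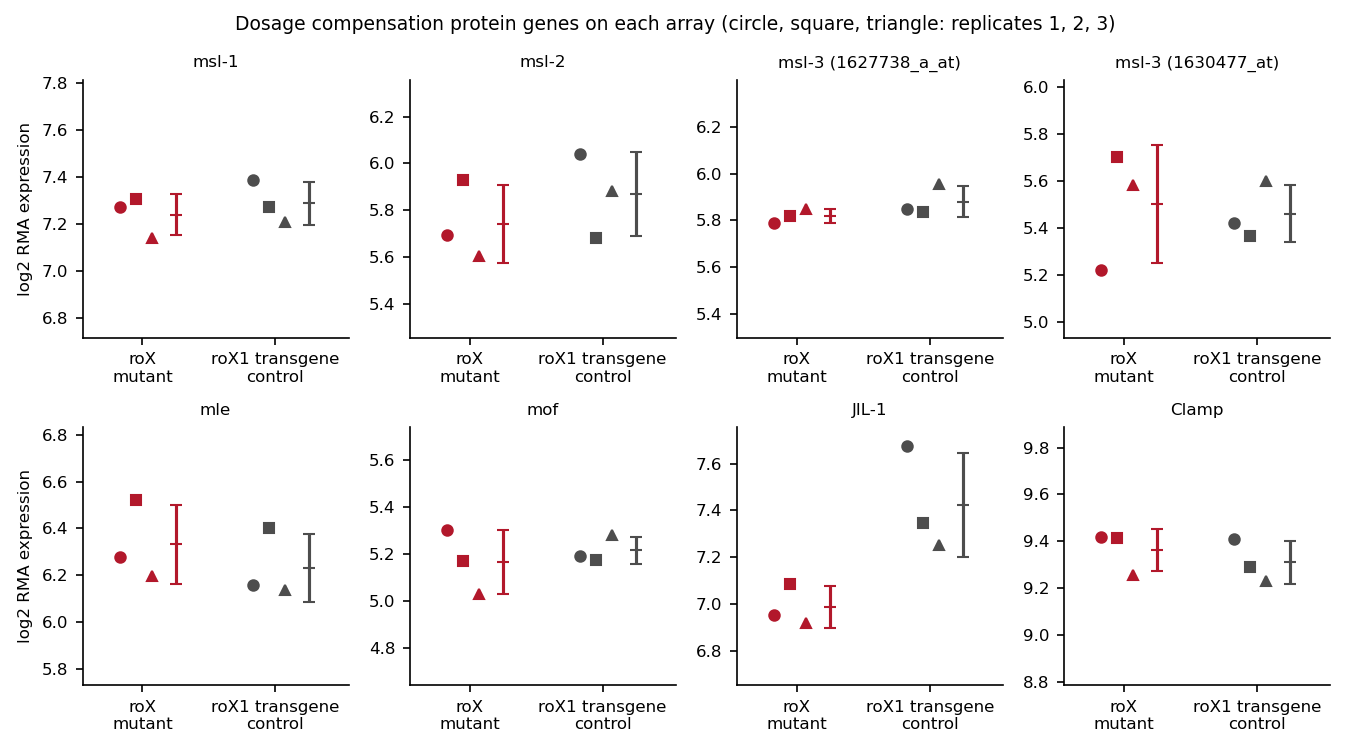
Log2 RMA expression (vertical axis, each panel spanning the same range of log2 units) of the 8 probesets on the 3 roX mutant arrays (red) and the 3 roX1 transgene control arrays (grey); symbols mark the replicate and bars give mean ± SD. In the JIL-1 panel the 3 mutant arrays lie below the 3 control arrays, and in the other 7 panels the groups overlap.

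JIL-1 had the largest difference of the 7 genes and was the only member whose groups did not overlap. JIL-1 phosphorylates histone H3 in interphase chromatin and in flies of both sexes keeps open chromatin from taking on heterochromatic marks. Its probeset, 1641021_a_at, read 6.954, 7.087 and 6.919 on the mutant arrays, against 7.673, 7.346 and 7.251 on the control arrays. Every mutant array was lower than every control array, with a gap of 0.164 between the nearest arrays of the groups, and control replicate 1 stood highest. The log2 change was -0.44 (SE 0.123, 95% confidence interval -0.73 to -0.14), which is 1.35-fold lower in mutants with an interval from 1.10 to 1.66-fold lower.

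The JIL-1 difference did not pass the test across all probesets (limma adjusted p = 0.347, rank 324 by p of 11262). In absolute size it stood at the 95.8th percentile of tested probesets, and 472 probesets, JIL-1 included, had differences of that size or more. All 3 mutant arrays lay below all 3 controls for 9.33% of tested probesets. That share covers this direction alone, and the share of probesets without overlap in either direction is larger. The exact two-sided permutation test gave p = 0.1, the smallest that 3 against 3 allows. At the standard error of this probeset a call would have needed a difference of 0.847, or 1.8-fold. Without control replicate 1 the difference was -0.31 (limma adjusted p = 0.267), and with any 1 array left out it lay between -0.52 and -0.31 and was not called.

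A measure of RNA quality also lay higher on every mutant array than on any control array. The excess of the 3′ over the 5′ actin control probeset, which grows as RNA degrades, was 0.77, 0.94 and 0.902 on the mutant arrays, against 0.716, 0.704 and 0.744 on the control arrays (exact two-sided permutation p = 0.1). The same excess for GAPDH averaged 1.38 ± 0.133 in mutants and 1.38 ± 0.033 in controls (SD, n = 3 each; exact permutation p = 1). For eIF-4a it averaged 1.42 ± 0.0248 in mutants and 1.36 ± 0.087 in controls, with overlapping groups (SD, n = 3 each; exact permutation p = 0.3). The part of RNA quality in the JIL-1 difference was not tested.

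**Figure D2:**
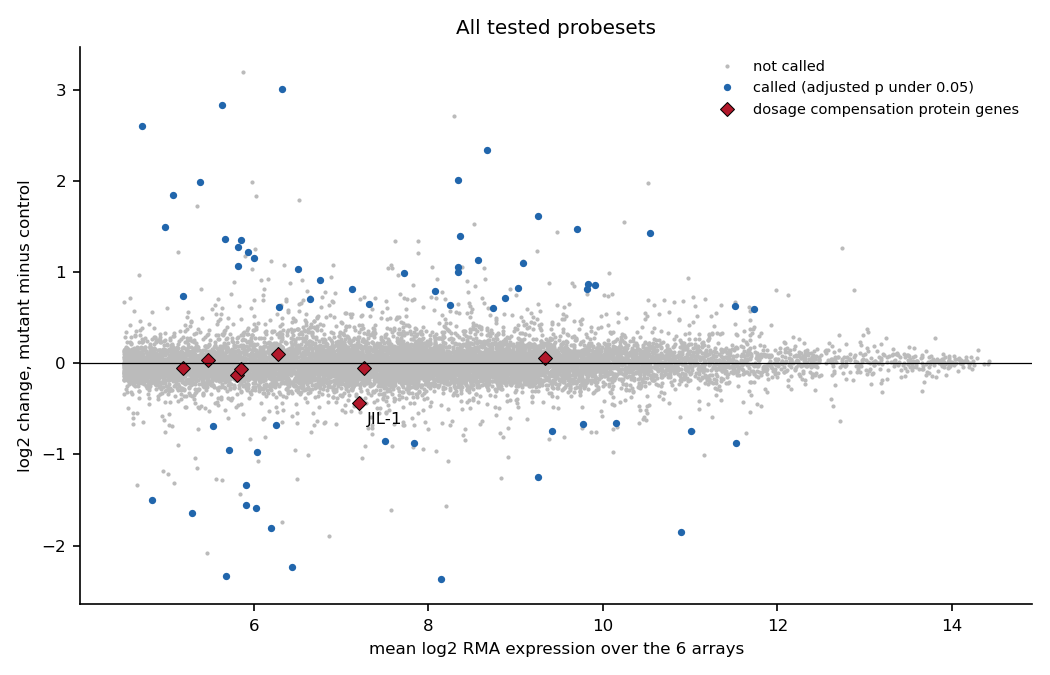
Log2 change, mutant minus control (vertical axis), against mean log2 RMA expression over the 6 arrays (horizontal axis) for the 11262 tested probesets; blue points are the 62 called ones and red diamonds the 8 probesets of the 7 genes. The diamonds lie between -0.44 (JIL-1) and 0.10 (mle), and none is blue.

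The genes of the core protein complex showed overlapping groups. The transcript of msl-1, the scaffold that the other subunits bind, read 7.273, 7.306 and 7.139 in mutants, against 7.388, 7.271 and 7.209 in controls. The highest array was a control and the lowest a mutant, the other mutant arrays lay above the other controls, and the log2 change was -0.050 (95% confidence interval -0.25 to 0.15; limma adjusted p = 0.885). The msl-2 probeset, 1635840_s_at, read 5.693, 5.929 and 5.607 in mutants, against 6.04, 5.683 and 5.884 in controls. Arrays of both groups spread over a similar range, 0.322 in mutants and 0.357 in controls. The msl-2 log2 change was -0.13 (95% confidence interval -0.43 to 0.17; limma adjusted p = 0.789). In the array maker's naming the suffix _s_at marks probes that several transcripts can share, so part of this signal could come from another transcript, although the platform annotation lists msl-2 alone.

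The msl-2 probeset thus gave a signal in females of both genotypes, at a mean of 5.743 ± 0.167 in mutants and 5.869 ± 0.179 in controls (SD, n = 3 each). Both means lie above the lowest mean of a tested probeset, 4.511. That level only marks the cut below which the dimmest 40% were dropped, so it does not show that the transcript was detected. The arrays measure mRNA, while the block by SXL acts on its translation.

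The chromodomain protein gene msl-3 was read by 2 probesets that both gave overlapping groups. The brighter, 1627738_a_at, had 5.789, 5.817 and 5.851 in mutants, against 5.847, 5.837 and 5.956 in controls, a log2 change of -0.061 (95% confidence interval -0.23 to 0.11; limma adjusted p = 0.823). It had the tightest replicates of the 8 probesets, with a residual SD of 0.0515, at the 5.9th percentile of tested probesets. The dimmer, 1630477_at, had 5.22, 5.701 and 5.583 in mutants, against 5.422, 5.364 and 5.598 in controls. Its mutant arrays included both the lowest and the highest of the 6 values, and its residual SD of 0.197 was the widest among the members. Its log2 change was 0.040 (95% confidence interval -0.29 to 0.37; limma adjusted p = 0.945), so the 2 msl-3 probesets had opposite signs, neither distinguishable from 0. Over the 6 arrays they correlated at r = 0.448, a description over arrays that share each preparation.

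The enzymes that act on RNA and chromatin were likewise not called. The helicase gene mle, which is also needed in both sexes for editing and splicing of neuronal transcripts, read 6.278, 6.522 and 6.197 in mutants, against 6.16, 6.4 and 6.137 in controls. Replicate 2 was the highest array in each group, and the groups overlapped. The mle log2 change was 0.10 (95% confidence interval -0.18 to 0.38; limma adjusted p = 0.824). The acetyltransferase gene mof, the only X-linked member, read 5.301, 5.168 and 5.028 in mutants, against 5.191, 5.173 and 5.279 in controls. The mutant arrays held both the highest and the lowest value. The mof log2 change was -0.049 (95% confidence interval -0.27 to 0.17; limma adjusted p = 0.895).

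The Clamp probeset was the brightest of the 8 probesets, although levels of different probesets cannot be ranked as amounts of RNA. It read 9.418, 9.412 and 9.258 in mutants, against 9.411, 9.292 and 9.23 in controls. The groups overlapped, and the log2 change was 0.052 (95% confidence interval -0.15 to 0.26; limma adjusted p = 0.881).

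The intervals state how large a change these arrays leave possible. Leaving JIL-1 aside, the lowest bound among the members was that of msl-2, at 0.745 times the control level, and the highest was that of mle, at 1.30 times. A call would have needed a change of at least 1.41-fold for the brighter msl-3 probeset, 1.5-fold for msl-1 and Clamp, 1.55-fold for mof, 1.75-fold for mle, 1.82-fold for msl-2 and 1.94-fold for the dimmer msl-3 probeset. These are thresholds for the observed difference. With 3 arrays per group a smaller observed difference would not have been called, and a true change of that size could also be missed. The exact permutation p of these 7 probesets lay between 0.3 and 0.9.

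**Figure D3:**
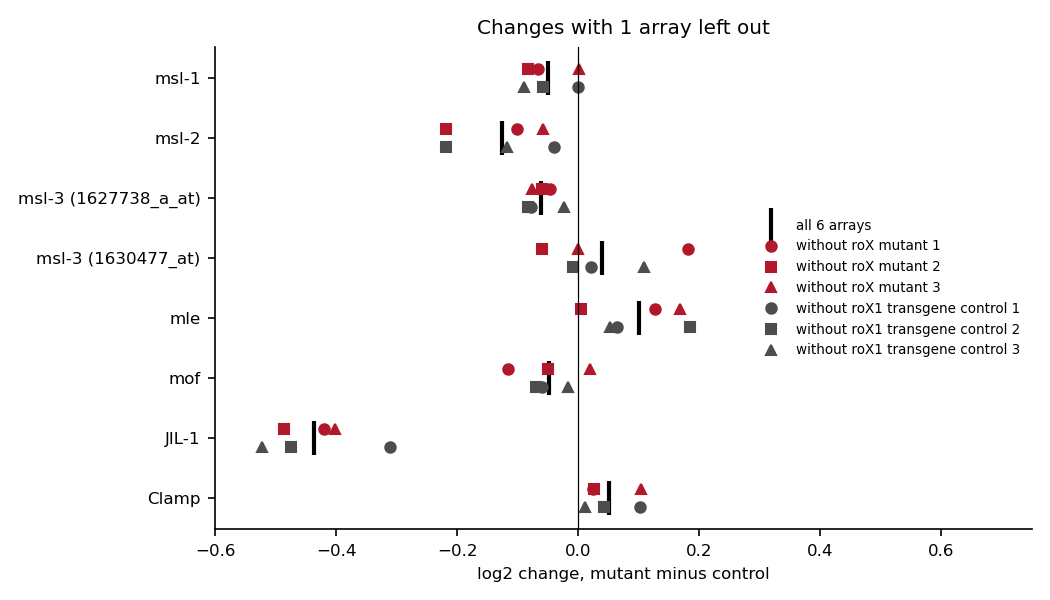
Log2 change, mutant minus control (horizontal axis), of the 8 probesets with all 6 arrays (black bars) and with each array left out in turn (red, a mutant array left out; grey, a control array left out; symbols mark the replicate). JIL-1 stays between -0.52 and -0.31, while msl-1, mof and the dimmer msl-3 probeset take values on both sides of 0.

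For 3 of the other 7 probesets the sign turned with 1 array left out. Without mutant replicate 3 the change of msl-1 was 0.000588, that of mof 0.0198 and that of the dimmer msl-3 probeset -0.000981. The dimmer msl-3 probeset was also below 0 without mutant replicate 2 (-0.060) and without control replicate 2 (-0.0086). The other 4 kept their sign. For msl-2 the change lay between -0.219 and -0.0405 with 1 array left out, for the brighter msl-3 probeset between -0.0826 and -0.0232, for mle between 0.0052 and 0.184, and for Clamp between 0.0111 and 0.104.

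The members did not vary as a block from array to array. Over the 6 arrays the 21 pairs of the 7 genes had Pearson correlations from -0.75 (msl-3 with Clamp) to 0.78 (msl-1 with Clamp), with a median of 0.245 and 15 above 0. Of the pairs with JIL-1, the closest was msl-1 (r = 0.708), then msl-2 (0.695). These are descriptions over 6 arrays that share their preparation and normalization. The gene most like JIL-1 over the 6 arrays was mira, a neural stem cell adaptor gene (r = 0.9982, among 6487 genes with an SD of at least 0.1), whose own difference was -0.22 and was not called (limma adjusted p = 0.498). So many genes reach a high r on 6 arrays that 263 of them had 0.9 or more with JIL-1. The most similar genes were Efa6 for msl-1 (r = 0.9887), js for msl-2 (0.9814), Cdc6 for msl-3 (0.979), Nnf1a for mle (0.9629), CNT2 for mof (0.9738) and CG13784 for Clamp (0.9914).

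Genes next to the members were also examined. Among the 10 nearest tested genes of each member, 5 on each side in gene order, none was called around msl-1, msl-2, msl-3, mle, mof or Clamp, with median changes from -0.107 around mof to 0.0619 around Clamp. Around JIL-1 the median was -0.0646, and the lowest change, -1.04, was that of a gene that was not called. Of these 10 genes 1 was called, against 0.529% of all tested genes and 28 of the 1764 tested genes on 3L. That gene, Iyd, an iodotyrosine deiodinase gene and the nearest tested gene on one side, was chosen for mention after its value was seen. Iyd read 5.311, 5.65 and 5.69 in mutants, against 6.513, 6.367 and 6.703 in controls, so all mutant arrays were lower, and its log2 change was -0.98 (SE 0.135; limma adjusted p = 0.0415). With any 1 array left out the log2 change of Iyd lay between -1.06 and -0.86, and Iyd was not called (limma adjusted p from 0.0689 to 0.173). In most of those runs fewer probesets were called in all than with the 6 arrays. The nearest tested gene on the other side, Noc1, a nucleolar protein gene, had -0.16 (limma adjusted p = 0.659) and overlapping groups. JIL-1 and Iyd both lie on 3L, where 28 of the 47 called genes lie, and the median change of the 1764 tested genes on 3L was -0.00578.

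Factors that work with these proteins were read from 4 lists of 33 genes, of which 29 were tested; MBD-R2, how, Su(var)3-9 and Top2 had no probeset under their symbol alone. None was called, against 0.529% of all tested genes, so the absence of a call in lists this short says little about their genes. By limma 1 gene, Hrb27C, had an unadjusted p under 0.05, against 805 of all 8883 tested genes. Their median change was -0.0537, with 6 above 0 and 23 below, where 51.2% of all tested genes lay below 0. For 5 of the 29 genes (dgt1, Hrb27C, HDAC1, MRG15 and the heterochromatin protein gene Su(var)3-7) all mutant arrays lay below all controls, which held for 9.1% of all tested genes. No test of the lists was made, and these genes were all read on the same 6 arrays. In an alternative fit with array weights, control replicate 1 had the smallest weight of the 6 arrays, 0.2753. Without that array the change of Set2 went from -0.25 to -0.12 and that of enok from -0.21 to -0.095. Hrb27C went from -0.25 to -0.15, dgt1 from -0.18 to -0.13 and HDAC1 from -0.17 to -0.12, and chm and Unr also moved toward 0. The changes of Rcd5, wds, MRG15 and Trl moved further below 0 without that array. Sxl, above 0, went from 0.17 to 0.24.

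**Figure D4:**
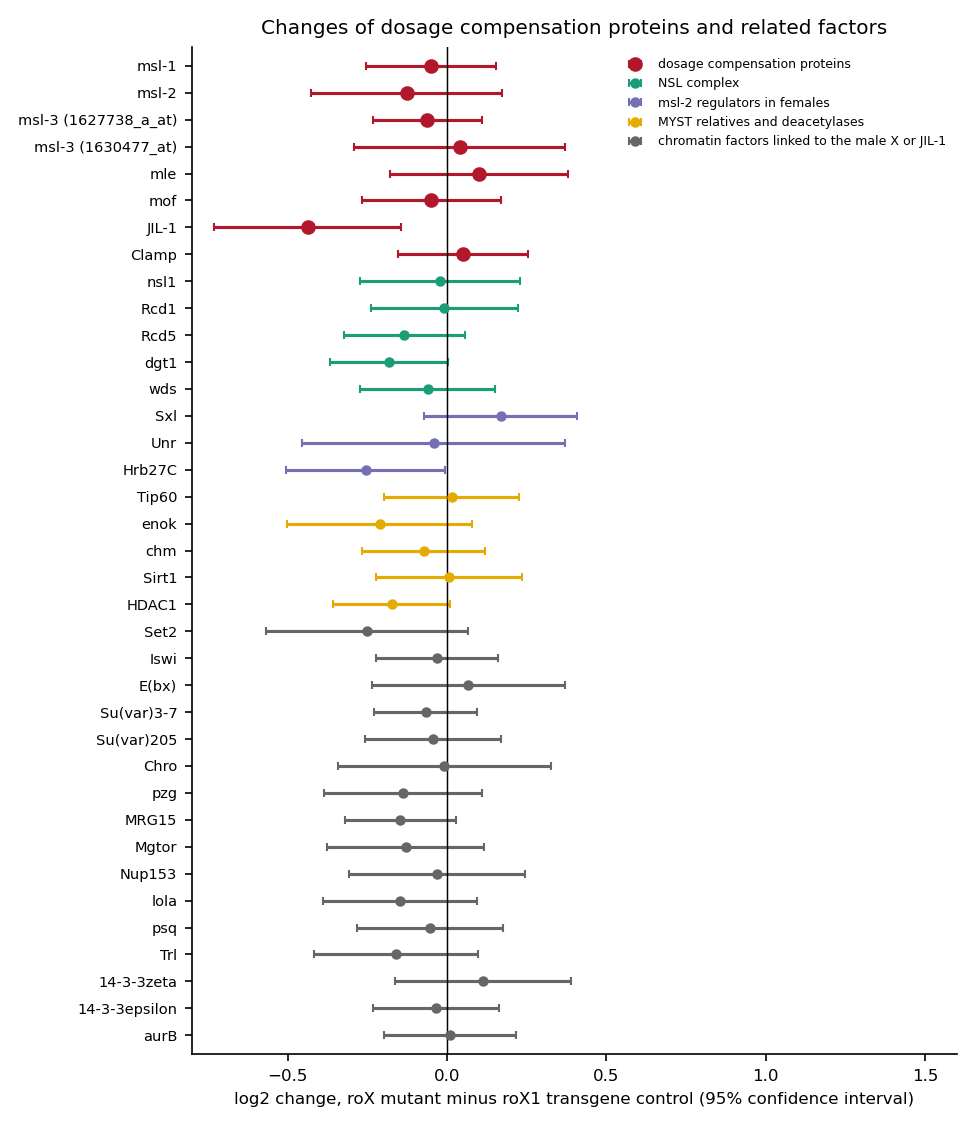
Log2 change, mutant minus control (horizontal axis; points, with bars for the 95% confidence interval), of the 8 probesets of the 7 genes (red) and of 29 related genes read by their brightest probeset, coloured by list. The intervals of JIL-1 (-0.73 to -0.14) and Hrb27C lie below 0 before adjustment, and no gene was called.

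MOF also works in the NSL complex, which acts at promoters of housekeeping genes in both sexes. The 5 tested NSL genes had changes from -0.182 to -0.00842, all below 0, where 51.2% of all tested genes lay below 0. None was called, against 0.529% of all tested genes. The subunit gene dgt1 averaged 7.996 ± 0.0347 in mutants and 8.179 ± 0.092 in controls (SD, n = 3 each), a log2 change of -0.18 (limma adjusted p = 0.552) with groups that did not overlap. The subunit genes Rcd5 and wds had -0.13 and -0.061 (limma adjusted p = 0.674 and 0.862), with overlapping groups.

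The factors that hold msl-2 in check in females were not called either, where 0.529% of all tested genes were. Sxl, the female switch gene that represses msl-2, was read by 3 probesets. On the brightest the mean was 7.919 ± 0.119 in mutants and 7.75 ± 0.13 in controls (SD, n = 3 each), which is 0.17 higher on the log2 scale and was not called (limma adjusted p = 0.674). The other Sxl probesets had 0.21 and -0.075, neither of them called. Hrb27C, an RNA-binding protein that acts with SXL on msl-2 mRNA, averaged 10.29 ± 0.0617 in mutants and 10.55 ± 0.177 in controls (SD, n = 3 each). Its log2 change was -0.25 (limma adjusted p = 0.543), and its groups did not overlap. Unr, the translational co-repressor of msl-2, had -0.041 (limma adjusted p = 0.953).

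Among the acetyltransferases related to MOF and the histone deacetylases, 5 genes were tested. By limma 0 were called, against 0.529% of all tested genes. At an unadjusted p under 0.05 there were 0, against 805 of all 8883 tested genes. The deacetylase gene HDAC1 had -0.17 (limma adjusted p = 0.573), with all mutant arrays below the controls. The acetyltransferase genes enok and chm had -0.21 and -0.074 (limma adjusted p = 0.663 and 0.813).

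The list of chromatin factors tied to the male X or to JIL-1 had 16 tested genes, each read by its brightest probeset. Their changes lay between -0.252 and 0.112, and 13 were below 0, where 51.2% of all tested genes lay below 0. The 15 probesets of lola alone ran from -0.338 to 0.061, none of them called. MRG15, a chromodomain relative of MSL3, had -0.15 (limma adjusted p = 0.617) and groups that did not overlap. Set2, which makes the histone mark that MSL3 reads, had -0.25 (limma adjusted p = 0.634), and Trl, which encodes the GAGA factor, -0.16 (limma adjusted p = 0.699). Both had overlapping groups. In this list too, limma called 0 genes, against 0.529% of all tested genes. An unadjusted p under 0.05 was reached by 0 of them, against 805 of all 8883 tested genes.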

How the data were processed

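Per the labels' design text, the authors used RMA (background correction, normalization between arrays, summary over probes) to make the deposited log2 values, of which each probeset has 1 on every array; no version is stated there. Because RMA equalizes the arrays' distributions, it hides a shift of most transcripts in the same direction. The table holds 18952 probesets. After removal of 183 control probesets, the dimmest 40% by mean level were dropped, leaving 11262 with a mean of at least 4.511; this stands in for the present and absent filter that the design text names.

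Probesets were named through the platform annotation (13647 with 1 symbol, 402 with several, 4720 unnamed), updated by gene number for 13544 of them. Differences were tested with limma 3.58.1 (lmFit and eBayes; two-sided tests; R version 4.3.3) and Benjamini-Hochberg adjustment over all tested probesets; adjusted p-values of single genes come from this fit, and calls are at an adjusted p under 0.05. A gene stands for its brightest tested probeset in lists. The exact permutation test used all regroupings of the 6 arrays. Precision is limited by having 3 arrays per group, and p-values measure the spread between preparations of pooled larvae. The fit was tested on simulated data. Plots were made in Python 3.11.15 (matplotlib 3.10.9).

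The members and lists were chosen with earlier results of these data known. The rule names all members, up to 3 genes of each list with the smallest p, any called list gene and the gene most like each member. Alternatives were the filter on dim probesets, normalization, array weights, a replicate block, the variance prior and leaving out each array.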

Additional observations from a re-analysis of the deposited data

How the results depend on the processing

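None of the 7 genes and no gene of the 4 related lists was called in an alternative run. There the smallest adjusted p of a member was 0.155 (JIL-1 with array weights, log2 change -0.28). The ordinary test called 0 of all tested probesets, so it could not have called any of these genes. Most runs with 1 array left out gave fewer calls in all than the main fit. JIL-1 stayed below 0 in all 14 alternatives, with adjusted p between 0.155 and 0.71. Of 107 values of member probesets under alternatives, 100 kept their sign and 7 did not. With array weights msl-1 had 0.0354 and msl-2 0.0173. With 1 array left out the range was -0.0901 to 0.000588 for msl-1, -0.117 to 0.0198 for mof and -0.060 to 0.181 for the dimmer msl-3 probeset. The mean of both msl-3 probesets was -0.0106, against -0.061 for the brighter. Of the related genes, Unr turned to 0.0909 with array weights and ran from -0.193 to 0.143 with 1 array left out, and wds from -0.111 to 0.0162. Iyd was called in 5 of 13 alternatives, and Mst87F with array weights (adjusted p = 0.0424). Over all probesets, 62 calls became 27 with the lowest 60% left out, 232 with array weights, and 0 in an ordinary test without moderation, where 968 had an unadjusted p under 0.05. Leaving out 1 array gave between 12 and 84 calls. The cause of these shifts was not tested. The replicate block gave 28 calls, and JIL-1 an adjusted p of 0.41. Deviations of same-numbered arrays correlated at 0.0529, -0.189 and 0.323, and 2 of 6 arrays were closest to their own number, so the numbers were not taken as pairs. With the lowest 60% left out, msl-2, msl-3, mle and mof were too dim to be tested.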
